A study of Arabidopsis thaliana with 12 samples.

Results

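The ABI5-binding proteins (AFPs) of Arabidopsis thaliana are encoded by 4 genes, AFP1 (AT1G69260), AFP2 (AT1G13740), AFP3 (AT3G29575) and AFP4 (AT3G02140, also called TMAC2). They were taken by gene identifier from a count table of 33602 genes, and all 4 had enough counts to be among the 21151 genes tested. The table covers 12 RNA sequencing libraries of whole seedlings aged 1 week, 3 in each of 4 groups: wild type after mock treatment, wild type after 50 µM abscisic acid (ABA) for 3 h, the mutant cdk8 after mock treatment and cdk8 after the same ABA treatment. The labels name the mutant only as cdk8, with no allele or background accession, and the title links CDK8, a kinase of the Mediator complex, to RAP2.6, SnRK2.6 and a positive role in ABA signalling. Mock columns are called 0 h in the table's header, so a contrast of ABA with mock can also hold the time of treatment. Nothing in the labels says that the 3 libraries of a group came from separate cultures, so p-values measure the spread between these libraries only.

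ABA is the hormone of drought and seed dormancy. It frees SnRK2 kinases from clade A protein phosphatases (PP2Cs), and the kinases activate basic leucine zipper (bZIP) factors such as ABI5 and the ABFs, which switch on genes with the ACGTG core of the ABA response element. AFPs bind ABI5 and related bZIPs and carry an EAR motif through which TOPLESS corepressors and histone deacetylases are recruited, as in their relative NINJA of the jasmonate pathway. AFP1 has been linked to the breakdown of ABI5 protein, and plants with more AFP2 or TMAC2 are less sensitive to ABA, so the family is known as a brake on the response that induces it. What can be read here is transcript level only.

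In the TAIR10 annotation of the count table, AFP1 lies at chr1:26039048-26040720 on the plus strand with 2 exons, and AFP2 at chr1:4713674-4715407 on the plus strand with 2 exons. AFP3 lies at chr3:11382214-11384004 on the minus strand with 2 exons, and AFP4 at chr3:385317-386538 on the minus strand with 1 exon. The coding sequences run to 345, 348, 231 and 319 codons, in that order. Aligned coding bases were between 65.5% and 73.5% identical, and the longest exact run shared by any pair was 25 bases, between AFP1 and AFP3, so these are not near-identical copies. The exons of AFP1 share 32 bases with RPK1 (AT1G69270), a receptor-like kinase gene on the opposite strand, and those of AFP2 share 14 bases with AT1G13750, also on the opposite strand. The counting command recorded in the file has no strand option, so fragments there are uncertain, but the shared stretches are 2.2% and 0.88% of the exon lengths. RPK1 rose by 1.35 ± 0.10 (SE, log2) with ABA in wild type and AT1G13750 fell by 0.68 ± 0.19 (adjusted p = 4.52e-08 and 0.00668).

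The 300 bases before the outermost RefSeq start of each gene are shown because all 4 genes responded to ABA and because the windows differ in the ABA response element core. Sequences are from the TAIR10.1 assembly, whose nuclear coordinates match TAIR10, and read 5′ to 3′ on the gene's strand. Capitals mark ACGTG on either strand, so that a palindromic G-box, CACGTG, counts as 2 overlapping matches. The windows are chr1:26038605-26038904 (plus) for AFP1, chr1:4713133-4713432 (plus) for AFP2, chr3:11384146-11384445 (minus) for AFP3 and chr3:387052-387351 (minus) for AFP4.
AFP1: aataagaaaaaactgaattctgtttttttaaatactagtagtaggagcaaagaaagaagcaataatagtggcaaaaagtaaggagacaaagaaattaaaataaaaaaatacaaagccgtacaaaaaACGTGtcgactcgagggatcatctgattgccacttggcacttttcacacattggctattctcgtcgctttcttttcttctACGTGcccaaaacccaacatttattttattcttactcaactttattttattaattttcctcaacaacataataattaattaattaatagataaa
AFP2: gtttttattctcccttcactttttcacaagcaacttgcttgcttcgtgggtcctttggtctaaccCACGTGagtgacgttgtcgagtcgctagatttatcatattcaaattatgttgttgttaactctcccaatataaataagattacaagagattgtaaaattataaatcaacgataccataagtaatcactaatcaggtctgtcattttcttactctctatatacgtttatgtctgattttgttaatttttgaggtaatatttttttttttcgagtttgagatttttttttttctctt
AFP3: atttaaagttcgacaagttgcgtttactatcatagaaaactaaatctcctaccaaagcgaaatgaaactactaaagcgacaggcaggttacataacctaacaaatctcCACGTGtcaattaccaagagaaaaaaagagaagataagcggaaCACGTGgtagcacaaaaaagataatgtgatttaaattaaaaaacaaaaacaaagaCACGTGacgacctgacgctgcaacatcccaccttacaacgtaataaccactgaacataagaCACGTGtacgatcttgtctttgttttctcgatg
AFP4: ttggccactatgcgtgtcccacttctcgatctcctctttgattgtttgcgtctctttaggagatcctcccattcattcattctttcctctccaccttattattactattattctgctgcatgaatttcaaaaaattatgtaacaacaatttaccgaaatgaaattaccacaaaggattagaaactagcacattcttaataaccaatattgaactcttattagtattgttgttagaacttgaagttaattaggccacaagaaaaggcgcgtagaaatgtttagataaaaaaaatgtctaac
AFP1 held 2 matches, neither in a G-box, and AFP2 held 1 G-box. AFP3 held 4 G-boxes, the nearest 28 to 33 bases before the start. Among the 33322 nuclear windows of the same length, 24.26% held ACGTG at least once, 6.41% held CACGTG, and AFP3 was 1 of 3 windows with 4 or more CACGTG. The AFP4 window held none, although TMAC2 was named for such elements in its promoter. A window of 1000 bases before its start held 3 matches on both strands, against 7 for AFP1, 3 for AFP2 and 9 for AFP3. The share over all genes was not computed for windows of that length. None of the 4 windows of 300 bases held CCGAC, the core of the dehydration response element, on either strand, while 14.24% of all windows did. The start of AFP4 in the count table lies 513 bases inside the RefSeq start used here, and the 300 bases before that inner start also held no ACGTG. For the others, the 300 bases before the count table's own start, 141 to 241 bases inside, held 1 match in AFP1, 5 in AFP2 and 10 in AFP3, and 1 CCGAC in AFP2. Shares over all genes were not computed for windows before the count table's starts either. A match is a description of the letters and says nothing of binding.

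All 4 AFP genes rose strongly with ABA in wild type, and AFP1 rose most. Levels are given as RPKM, fragments scaled to exon length and to library size by the trimmed mean of M values (TMM), so that genes can be compared. Exon lengths are those of the count table, whose gene starts lie 141 to 513 bases inside the RefSeq starts. Levels were not recomputed with RefSeq lengths, so the order of members with close levels is uncertain. AFP1 stood at 8.06, 6.54 and 8.24 RPKM in the 3 wild-type mock libraries and at 292, 282 and 262 after ABA. That is a change from 7.61 ± 0.936 to 279 ± 15.2 (SD, n = 3 each), a 36.6-fold rise with a log2 fold change of 5.19 ± 0.19 (SE; edgeR's quasi-likelihood test, adjusted p = 4.67e-11). By size of the log2 fold change AFP1 ranked 99 of the 21151 genes tested.

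AFP3, the most abundant member before treatment, stood at 21.2, 17.9 and 26.7 RPKM in wild-type mock libraries and at 191, 196 and 198 after ABA. The groups were far apart, and the rise was 8.89-fold (log2 3.15 ± 0.13, adjusted p = 1.41e-10). AFP4 went from 8.10, 7.43 and 8.12 RPKM to 67.2, 61.8 and 66.6, an 8.27-fold rise (log2 3.05 ± 0.12, adjusted p = 6.28e-11). AFP2 rose least of the 4, from 7.07, 5.98 and 7.10 RPKM to 41.3, 43.9 and 46.8. Its groups were still well separated, with a 6.56-fold rise (log2 2.71 ± 0.11, adjusted p = 8.94e-11). So 4 of 4 members rose, where 31.9% of all genes tested rose and 32.8% fell, and where 33.6% had every ABA library above every mock library. The median log2 fold change was 3.10 over the 4 members and -0.01 over all genes.

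**Figure D1:**
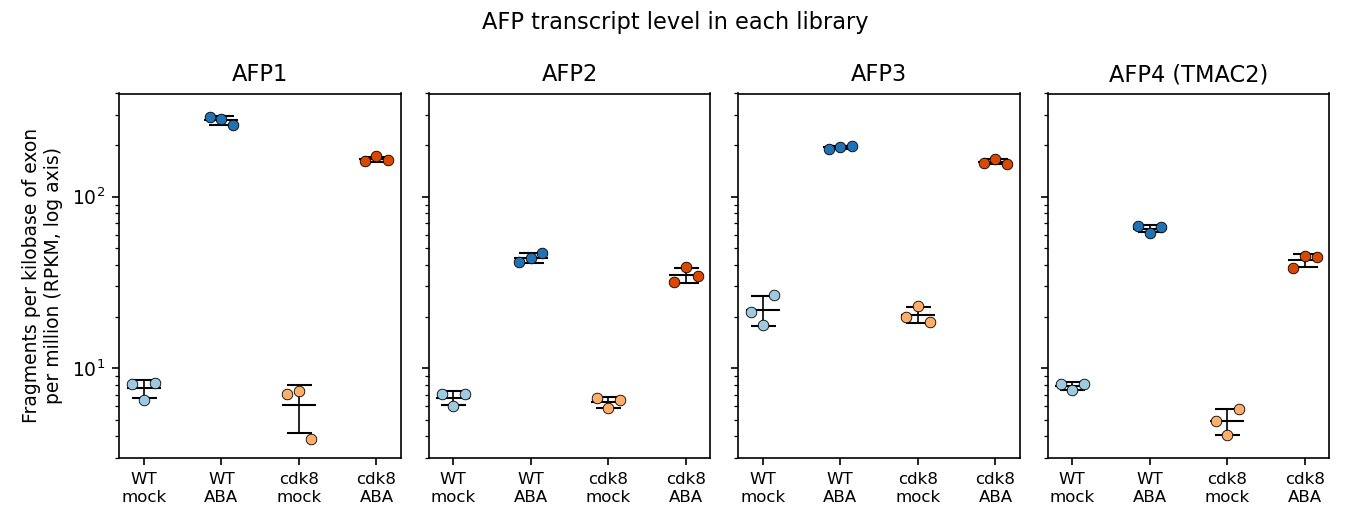
Transcript level of each AFP gene in the 12 libraries, in RPKM on a log axis, by group. Points are libraries, and the bar with caps is the mean ± SD of 3 libraries. ABA libraries lie far above mock libraries for every gene in both genotypes, and cdk8 ABA libraries lie below wild-type ABA libraries.

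In cdk8 the 4 genes also rose with ABA. AFP1 went from 7.06, 7.32 and 3.88 RPKM to 161, 172 and 163, and the third mock library was low. The rise was 27.3-fold (log2 4.77 ± 0.19, adjusted p = 1.15e-10). AFP2 went from 6.72, 5.82 and 6.47 RPKM to 31.8, 38.7 and 34.3, a 5.50-fold rise (adjusted p = 2.71e-10). AFP3 went from 19.9, 22.9 and 18.6 RPKM to 158, 166 and 155, a 7.80-fold rise (adjusted p = 3.06e-10). No mock library came near any ABA library for these genes. AFP4 went from 4.94, 4.08 and 5.80 RPKM to 38.2, 45.3 and 44.3, an 8.58-fold rise (adjusted p = 9.29e-11). In cdk8, 30.6% of all genes tested rose with ABA and 30.4% fell, and 34.2% had every ABA library above every mock library. The mock and ABA libraries of a genotype serve both its ABA contrast and the genotype contrasts, so these results are not independent of each other.

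The mutant differed from wild type most clearly in AFP4, which was lower in cdk8 with and without ABA. After mock treatment AFP4 was at 4.94 ± 0.857 RPKM in cdk8 and 7.88 ± 0.393 in wild type, with no overlap between libraries, as for 19.7% of all genes tested. The difference was 1.59-fold (log2 -0.67 ± 0.13, adjusted p = 0.00352). The other 3 members overlapped between genotypes after mock treatment, with log2 differences of -0.33 for AFP1, -0.08 for AFP2 and -0.10 for AFP3 (adjusted p = 0.264, 0.685 and 0.659). Thus 1 of 4 was called lower and none higher, where 8% of all genes tested were lower in cdk8 and 5.15% higher. Leaving out 1 library moved these values to between -0.48 and -0.08 for AFP1, with -0.08 reached without cdk8 mock replicate 3, and to between -0.15 and -0.02 for AFP2. The value for AFP3 turned to 0.066 without wild-type mock replicate 3. None was called in any of these repeats.

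After ABA, AFP1, AFP2 and AFP4 were lower in cdk8 than in wild type. The cdk8 libraries of all 4 members lay below the wild-type ones with no overlap, as did those of 18.5% of all genes tested. AFP1 stood at 165 ± 5.58 RPKM in cdk8 against 279 ± 15.2 in wild type, 1.68-fold lower (log2 -0.75 ± 0.16, adjusted p = 0.00411). AFP4 stood at 42.6 ± 3.84 against 65.2 ± 2.99, 1.53-fold lower (log2 -0.61 ± 0.10, adjusted p = 0.00101). AFP2 stood at 34.9 ± 3.51 against 44.0 ± 2.71, 1.26-fold lower (log2 -0.33 ± 0.10, adjusted p = 0.024). The call of AFP2 was the least secure of the 3. It was lost under upper-quartile scaling, in a fit of the 2 ABA groups alone and on leaving out wild-type ABA replicate 2 or 3 or cdk8 ABA replicate 1 or 3, where the adjusted p reached 0.0942 at most. AFP3 stood at 160 ± 5.51 against 195 ± 3.90, a log2 difference of -0.29 ± 0.12 that did not pass (adjusted p = 0.0982, 95% interval from -0.55 to -0.03). Its call appeared without wild-type mock replicate 3 (adjusted p = 0.0495). Over all genes tested, 13% were lower in cdk8 after ABA and 10.6% higher, against 3 of 4 members lower. The balance of these calls turned with scaling, as 44.9% of called genes were higher in cdk8 under TMM and 54.2% under upper-quartile scaling, where AFP1 and AFP4 but not AFP2 were called lower. Wild-type ABA replicate 3 and cdk8 ABA replicate 2 stood apart from the rest, at -26.7 and -33.7 on the fourth principal component, where the other libraries lay between -6.57 and 29.4. Without both, the log2 differences after ABA were -0.84 for AFP1, -0.39 for AFP2, -0.32 for AFP3 and -0.66 for AFP4, with the same 3 called.

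No member's ABA response was called different between the genotypes. The difference of responses, cdk8 minus wild type, was -0.42 in log2 for AFP1 (95% interval from -0.94 to 0.10, adjusted p = 0.342), -0.25 for AFP2 (from -0.57 to 0.07, adjusted p = 0.353), -0.19 for AFP3 (from -0.56 to 0.19, adjusted p = 0.582) and 0.05 for AFP4 (from -0.29 to 0.40, adjusted p = 0.888). The intervals leave room for an AFP1 response in cdk8 about as large as in wild type or clearly smaller. It turned on cdk8 mock replicate 3, the library low in AFP1, without which the difference was -0.67 and was called (adjusted p = 0.0364). For AFP3 the estimate ran from -0.35 to -0.057 with 1 library left out, and for AFP2 from -0.34 to -0.17, with no call. For AFP4 the estimate was near 0 and turned to -0.064 without cdk8 mock replicate 2. At this threshold 5.21% of all genes tested had a called difference, of which 45.4% were positive, or 58.5% under upper-quartile scaling.

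**Figure D2:**
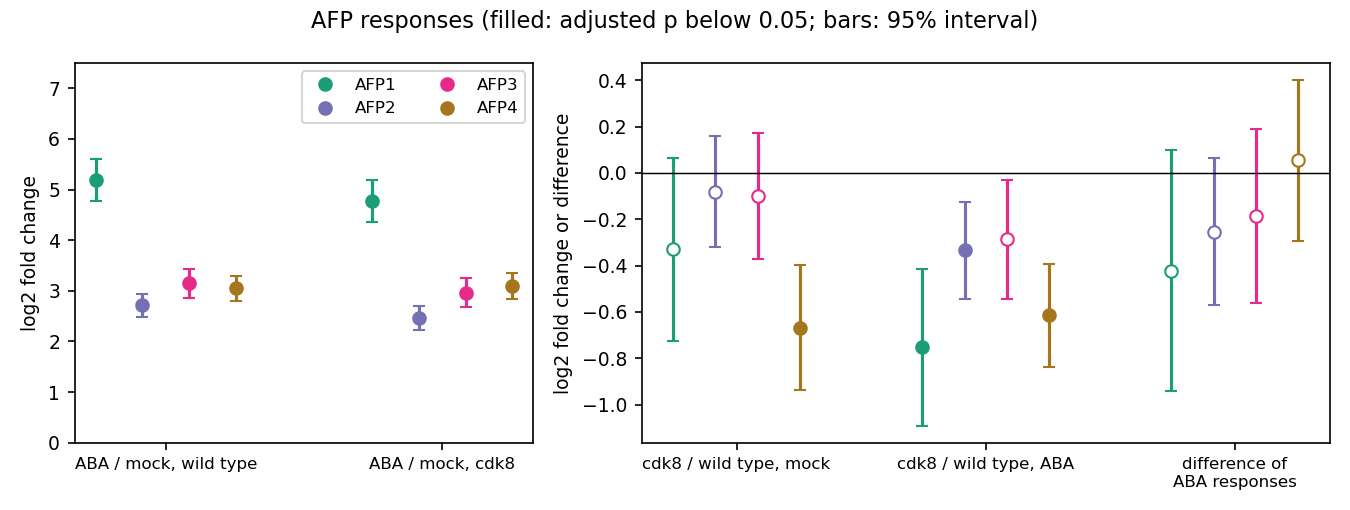
Log2 fold changes of the 4 AFP genes with ABA in each genotype (left) and between genotypes, with the difference of the ABA responses (right). Points are estimates over 12 libraries, bars are 95% intervals and filled points have an adjusted p below 0.05. AFP1 stands above the others on the left at 5.19 and 4.77, and on the right only AFP4 is filled after mock treatment.

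The order of the members by level changed with ABA. Before treatment in wild type AFP3 was highest, and AFP4, AFP1 and AFP2 followed at 7.88, 7.61 and 6.71 RPKM. There AFP1 overlapped both AFP4 and AFP2, while AFP4, at 7.43 to 8.12, lay above AFP2, at 5.98 to 7.10. After ABA in wild type the order was AFP1, AFP3, AFP4 and AFP2, with no overlap between neighbours. In cdk8 after ABA, AFP1 and AFP3 overlapped at 161 to 172 and 155 to 166 RPKM, and so did AFP4 and AFP2 at 38.2 to 45.3 and 31.8 to 38.7. In cdk8 after mock treatment AFP3 was again highest, and AFP1 overlapped both AFP2 and AFP4. AFP2, at 5.82 to 6.72 RPKM, lay just above AFP4, at 4.08 to 5.80. Each of these orders of AFP2 and AFP4 rests on the count table's exon lengths and is uncertain.

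The summed level of the 4 genes was 44.2 ± 6.17 RPKM in wild type and 37.8 ± 2.81 in cdk8 after mock treatment, and 583 ± 8.67 and 403 ± 16.8 after ABA. AFP1 made up 16.4% to 18.1% of that sum in wild-type mock libraries and 45.7% to 49.4% after ABA. In cdk8 its share was 11.2% to 18.3% after mock treatment and 40.7% to 41.4% after ABA, below every wild-type ABA library. AFP3 went the other way, from 47.3% to 53.2% of the sum in wild-type mock libraries down to 32.3% to 34.6% after ABA. In cdk8 after ABA it still held 39.1% to 40.7%. From mock to ABA the pool thus went from mainly AFP3 to a mixture, led by AFP1 in wild type. In cdk8 the AFP1 share after ABA was only just above that of AFP3.

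**Figure D3:**
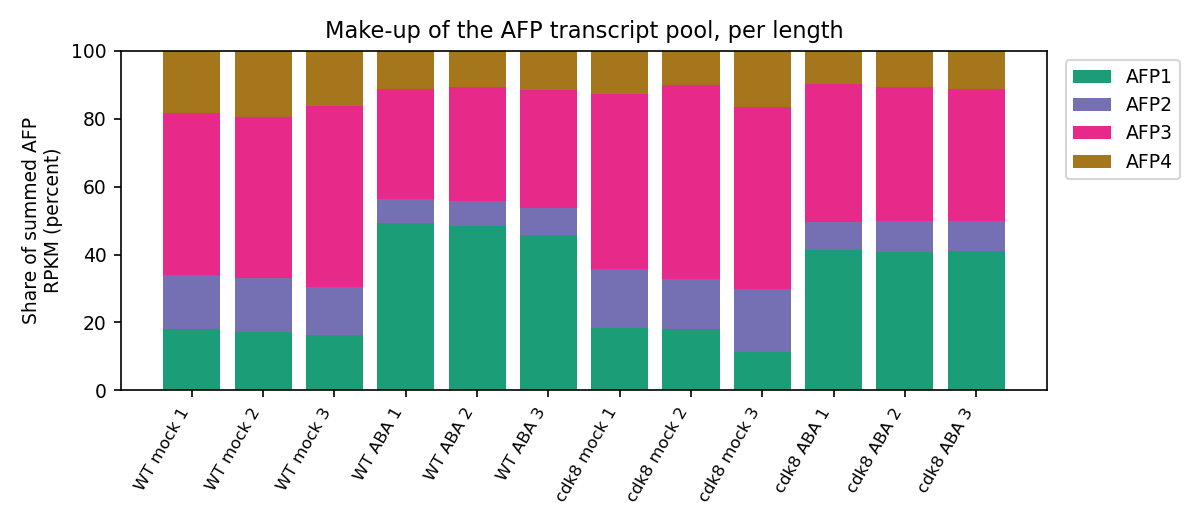
Share of the summed AFP level (RPKM, percent) taken by each gene in each of the 12 libraries, as stacked bars. The AFP1 share is 11.2% to 18.3% in mock libraries, 45.7% to 49.4% in wild type after ABA and 40.7% to 41.4% in cdk8 after ABA.

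Ratios between members within a library do not depend on scaling, and 9 of 12 tests of them passed. Each test was a two-sided exact permutation test of the log2 ratio over 12 libraries, exchanging ABA and mock within genotype or cdk8 and wild type within treatment in 400 ways. P-values were adjusted over the 12 tests, and the smallest p possible was 0.005. The ratios share members, so the tests are not independent and their number passing counts the same shifts more than once. The ratio of AFP1 to AFP3 was 0.309 to 0.380 in wild-type mock libraries and 1.32 to 1.53 after ABA, a mean log2 rise of 1.94 over both genotypes (exact permutation, p = 0.005, adjusted p = 0.01). The ratios of AFP1 to AFP2 and of AFP1 to AFP4 rose likewise, by 2.42 and 1.93 (adjusted p = 0.01 each). AFP2 fell against AFP3 and AFP4 with ABA, by 0.48 and 0.50 on the log2 scale (adjusted p = 0.01 each). For AFP3 against AFP4 the shift with ABA was -0.01 (adjusted p = 0.915).

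Between genotypes, AFP4 fell against AFP2 and AFP3. The ratio of AFP2 to AFP4 was 0.804 to 0.874 in wild-type mock libraries and 1.12 to 1.43 in cdk8. Its rise does not depend on exon length, but whether it lies above or below 1 does, so a turn in order is uncertain. After ABA it was 0.615 to 0.711 in wild type and 0.774 to 0.854 in cdk8. The mean log2 difference, cdk8 minus wild type, was 0.44 (exact permutation, adjusted p = 0.01), and for AFP3 to AFP4 it was 0.47 (adjusted p = 0.0171). Both passed in all 12 repeats that left out 1 library. AFP1 also fell against AFP3, by 0.37 (adjusted p = 0.03). After ABA the AFP1 to AFP3 ratio was 1.02 to 1.05 in cdk8 against the 1.32 to 1.53 of wild type. That call rested on wild-type mock replicate 1 and cdk8 mock replicate 3, and leaving either out gave an adjusted p of 0.0675 or 0.0525. AFP1 fell against AFP2 by 0.35 (adjusted p = 0.0467), a call lost in 11 of the 12 repeats that left out 1 library, where the adjusted p reached 0.14. The ratios of AFP1 to AFP4 and of AFP2 to AFP3 did not pass between genotypes (adjusted p = 0.816 and 0.835).

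The bZIP factors bound by AFPs rose with ABA as well, mostly by less. Of 9 listed, 7 were tested, and all 7 rose in both genotypes, where 31.9% and 30.6% of all genes tested rose. The median log2 fold change of the 7 was 1.58 in wild type and 2.0 in cdk8. ABI5, the factor that gave the family its name, rose from 0.951 ± 0.162 to 12.5 ± 1.47 RPKM in wild type (log2 3.71 ± 0.19, adjusted p = 8.65e-10). In cdk8 it rose from 0.684 ± 0.191 to 10.5 ± 1.64 RPKM (log2 3.95). AFP1 thus stood far above ABI5 in RPKM after ABA in every library. ABF2, ABF3 and ABF4 rose by 1.94, 1.92 and 0.97 in wild type, and AREB3 and EEL, a bZIP of late embryo genes, by 0.66 and 1.58. DPBF2 and bZIP15 had too few counts to be tested, as did ABI3 and ABI4, the B3 and AP2 factors that act beside ABI5.

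Between genotypes after ABA, 2 of the 7 bZIP partners were called higher in cdk8 and none lower. The shares of all genes tested were 10.6% and 13%, and no test set the partners against the AFPs. AREB3 stood at -0.26 (95% interval from -0.47 to -0.05, adjusted p = 0.0716), close to the -0.29 of AFP3. Its cdk8 libraries lay below the wild-type ones with no overlap, as did those of 18.5% of all genes tested. Libraries of EEL (-0.16) also lay lower in cdk8 with no overlap, and those of ABF3 (0.15) lay higher, with neither gene called. ABF1 was at 26.1 to 27.4 RPKM in wild-type mock libraries and 16.4 to 19.8 in cdk8, a log2 difference of -0.57 ± 0.08 (adjusted p = 0.00079). After ABA it was at 48.6 to 52.9 in wild type and 61.3 to 64.1 in cdk8, so that the order of genotypes turned (log2 0.33 ± 0.08, adjusted p = 0.0108). ABF1 was the only one of the 7 whose response was called different, by 0.89 ± 0.12 (adjusted p = 0.0012), where 5.21% of all genes tested were. ABF4 was higher in cdk8 after mock (log2 0.35, adjusted p = 0.0328) and after ABA (0.45, adjusted p = 0.00471), and its mock call was lost on leaving out any of 5 mock libraries, wild-type replicates 1, 2 and 3 and cdk8 replicates 2 and 3. EEL was lower in cdk8 after mock treatment (-0.84 ± 0.20, adjusted p = 0.0144). ABI5 itself was not called between genotypes after mock (-0.48, adjusted p = 0.222) or after ABA (-0.25, adjusted p = 0.249).

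Corepressor genes moved little beside their AFP partners. Of 8 TOPLESS and histone deacetylase genes, 7 rose with ABA in wild type and 6 in cdk8. Their medians were 0.49 and 0.38 in log2, and 31.9% and 30.6% of all genes tested rose. TOPLESS itself (TPL) rose most, by 1.53 ± 0.14 in wild type and 0.98 ± 0.13 in cdk8. TPR1, TPR2 and TPR3 rose by 0.53, 0.80 and 0.76 in wild type and by 0.38, 0.54 and 0.52 in cdk8. TPR4 and HDA6 rose in wild type, by 0.45 and 0.31, and stood at -0.05 and 0.09 in cdk8, and the difference of responses was not called for either. The deacetylase complex gene SAP18 rose by 0.26 in wild type and 0.37 in cdk8. HDA19 stood at -0.01 in wild type and rose by 0.19 in cdk8. The call of SAP18 in wild type was lost in 11 of 21 alternatives, that of HDA19 in cdk8 in 15 and that of HDA6 in wild type under upper-quartile scaling. After mock treatment TPL and TPR4 were higher in cdk8 (log2 0.49 and 0.41, adjusted p = 0.0281 and 0.0349), and each call was lost on leaving out wild-type mock replicate 2 or 3 or any 1 cdk8 mock library, and for TPR4 also cdk8 ABA replicate 3. After ABA HDA19 was higher in cdk8 (0.24, adjusted p = 0.035), a call lost in 9 of 21 alternatives. NINJA rose by 0.63 in wild type and 0.56 in cdk8.

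**Figure D4:**
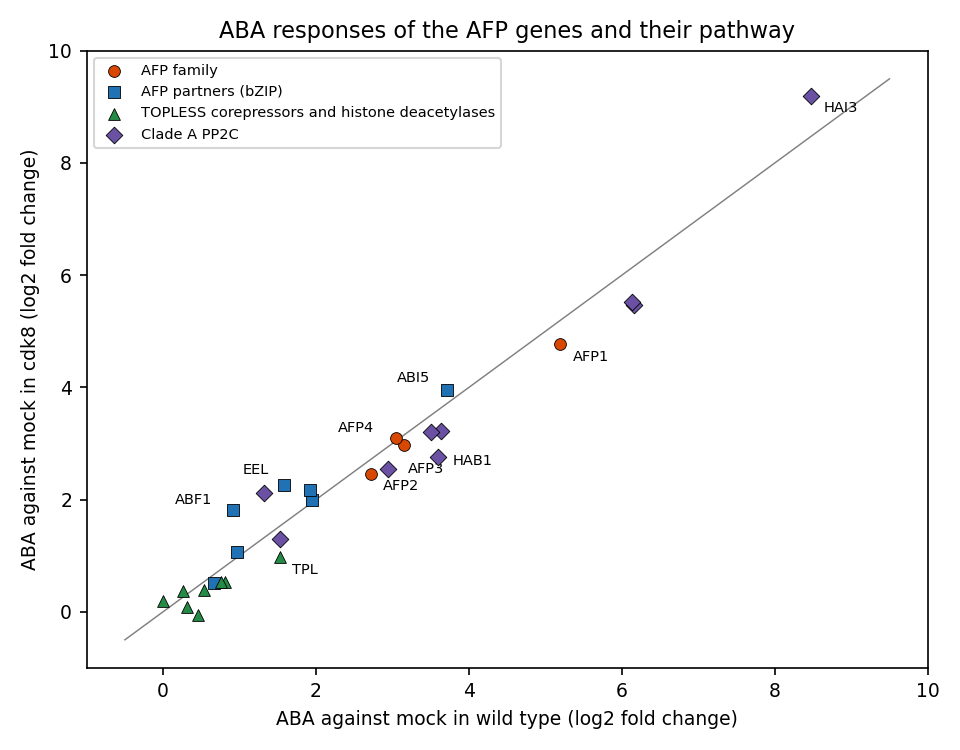
Log2 fold change with ABA in wild type (x axis) and in cdk8 (y axis) for the AFP genes, the tested bZIP partners, the TOPLESS and deacetylase genes and the clade A PP2Cs. Each point is a gene over 12 libraries, and the line marks equal responses. AFP1 lies at 5.19 and 4.77, ABF1 above the line at 0.92 and 1.81, and HAB1 below it at 3.6 and 2.76.

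The clade A PP2Cs, the other brake on ABA signalling that ABA induces, rose in 9 of 9 cases in both genotypes. Their medians were 3.6 and 3.2 in log2, and 31.9% and 30.6% of all genes tested rose. HAI2 and HAI3, which had the smallest p-values, rose by 6.13 and 8.48 in wild type, and HAI1 rose by 6.16. HAI3 had only 25 fragments over the 3 wild-type mock libraries together, so the size of its rise is uncertain. After ABA, 4 of the 9 were lower in cdk8 and none was higher, where 13% and 10.6% of all genes tested were. Among the 4 were HAI2 (-1.92 ± 0.13, adjusted p = 1.46e-06) and ABI1 (-0.90 ± 0.09, adjusted p = 2.63e-05). HAB1 alone had a called difference of response (-0.83 ± 0.15, adjusted p = 0.00756), where 5.21% of all genes tested had one. The kinase gene SnRK2.6 rose by 2.05 in wild type and 1.59 in cdk8 and was lower in cdk8 after ABA (-0.56 ± 0.10, adjusted p = 0.0012), while SnRK2.2 rose by 0.50 and 0.89.

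Genes that modify ABI5 protein or turn it over moved in both directions. Of 14, 7 rose and 2 fell with ABA in wild type, and 4 rose and 2 fell in cdk8. Of all genes tested, 31.9% rose and 32.8% fell in wild type, and 30.6% and 30.4% in cdk8. The list was not tested against other genes. The kinase gene PKS5 rose by 1.55 in wild type and 1.14 in cdk8 and was lower in cdk8 after ABA (-1.0 ± 0.17, adjusted p = 0.00104). COP1, a ubiquitin ligase gene of light signalling, fell by 0.86 in wild type and by 1.06 in cdk8. BIN2, a kinase gene of brassinosteroid signalling, was also lower in cdk8 after ABA (-0.39, adjusted p = 0.0153). In that contrast 1 of the 14 was called higher and 2 lower, where 10.6% and 13% of all genes tested were. ABD1 stood at 4.96 ± 0.241 RPKM in cdk8 after ABA and 3.59 ± 0.325 in wild type after ABA. After mock treatment COP1 and DDB1A were higher in cdk8 (0.35 and 0.29, adjusted p = 0.0145 and 0.0386).

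Of 12 listed target genes of ABI5 and the ABFs, 10 were tested. With ABA 9 rose and 1 fell in each genotype. Of all genes tested, 31.9% rose and 32.8% fell in wild type, and 30.6% and 30.4% in cdk8. ADH1 and RD29A were up by 5.93 and 5.44 in wild type, and PHO1, a phosphate exporter gene, was down by 0.80. In cdk8 after ABA 4 of the 10 were lower, such as ADH1 (-0.94 ± 0.14, adjusted p = 0.000342). EM1, a late embryogenesis gene, was higher (1.37 ± 0.28, adjusted p = 0.00338). The shares of all genes tested were 13% lower and 10.6% higher.

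By root mean square difference of centred log2 CPM (counts scaled to library size) over the 12 libraries, the patterns of AFP2, AFP3 and AFP4 lay within 0.28 to 0.35 of each other, and AFP1 lay 1.00 to 1.25 from them. Among 7477 other genes with a RefSeq symbol and a mean of at least 5 CPM, the nearest to AFP1 were NADP-ME1, a malic enzyme gene, at 0.21, PUB19, a U-box ubiquitin ligase gene, at 0.25 and SWEET4, a sugar transporter gene, at 0.26. The nearest to AFP2 were COR413-PM1, CRL1 and ALDH2B7 at 0.12 to 0.13. The nearest to AFP3 were HB-12, a homeodomain factor gene, at 0.15, and ALDH7B4 and MSL4 at 0.17. The nearest to AFP4 were BBX8, a B-box gene, at 0.17 and NAC102 and PCL1, the latter a clock gene, at 0.19. Like AFP4, these 3 were lower in cdk8 after mock treatment (log2 -0.73, -0.70 and -0.59). They were chosen for their pattern in these same libraries, so that likeness is a description. Without the libraries that stood apart, the nearest gene to AFP4 was NAC102 at 0.13, with DJ1A and MAPKKK17 next.

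The libraries held 17675785 to 27415053 assigned fragments, with the cdk8 ABA libraries deepest, and the members had at least 90 fragments in each. CDK8 was at 10.9 ± 0.592 RPKM in wild type and 3.61 ± 1.14 in cdk8 after mock treatment, and at 15 ± 0.796 and 4.40 ± 1.48 after ABA (log2 -1.60 and -1.77, adjusted p = 0.000604 and 0.000111). These are whole seedlings, in which fewer cells of a type and less RNA per cell cannot be told apart. Summed CPM of 4 photosynthetic markers ran from 22450 to 25044 in wild-type mock, 6859 to 7894 in wild-type ABA, 26136 to 28752 in cdk8 mock and 8538 to 9290 in cdk8 ABA libraries, and 2 of the 4 were higher in cdk8 after ABA. Those of 4 root markers ran from 140 to 176, 62.2 to 84.3, 134 to 178 and 40.3 to 56.7, and all 4 were lower in cdk8 after ABA. With ABA the root marker RHD2 rose in both genotypes, while PRP3, COBL9 and LRX1 fell. Summed CPM of 3 guard cell markers ran from 44.2 to 46.6, 33.1 to 41.6, 63.0 to 78.8 and 24.8 to 27.4, and 2 were lower in cdk8 after ABA. The guard cell markers disagreed after mock treatment. KAT1 had a mean of 51.1 CPM in cdk8 and 24.8 in wild type, MYB60 14.8 and 14.2, and SLAC1 4.48 and 6.06. Summed CPM of 5 seed markers ran from 0.475 to 12.5, 0.116 to 3.08, 2.17 to 10.1 and 3.08 to 58.9, and the 4 tested were higher in cdk8 after ABA. Among all genes tested, 10.6% were higher and 13% lower in cdk8 after ABA. No marker was at 0 in all libraries of a group. The part of these tissue markers in the AFP differences was not tested.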

How the data were processed

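Per the labels, total RNA of whole seedlings was extracted with Trizol and sequenced. The deposited table holds raw counts of fragments per gene, made by the authors from read pairs over TAIR10 exons with featureCounts v1.4.6, per the file headers. FastQC and TopHat2 are named in the submitters' processing notes. The counting command recorded there has no option for strand, multi-mapping or overlapping reads, so the program's defaults would apply. Columns were joined to groups by library number. The number of cdk8 ABA replicate 3 lies outside the unbroken run of the other libraries, and the labels do not say why. Without that library AFP2 after ABA stood at -0.33 in log2 and lost its call (edgeR, adjusted p = 0.0639). The calls of AFP1 and AFP4 after ABA held without it. Kit, read length and alignment settings were not given in the sources used here.

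Genes passing edgeR's filterByExpr were scaled by TMM and fitted as 4 group means over 12 libraries with edgeR 4.0.16 (R 4.3.3) and its quasi-likelihood test; p-values were Benjamini-Hochberg adjusted over all 21151 genes, with 0.05 as threshold. Fits were tested on simulated data. RPKM was computed from TMM-scaled library sizes and the table's exon lengths. Alternatives were DESeq2 1.42.0, voom of limma 3.58.1, scaling by RLE or the upper quartile, other filters, fewer groups, each library left out, and a replicate block. Precision is set by 3 libraries per group.

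Named genes were the members, CDK8, all bZIP partners and TOPLESS genes, up to 2 called genes per direction of the other lists, and the 3 nearest patterns per member; the rest of a list is given as counts. The members and lists were chosen with earlier results of these data known. Gene positions and symbols came from RefSeq; 32834 of 32835 shared nuclear genes overlapped in position.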

Additional observations from a re-analysis of the deposited data

Results flagged for a closer look

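Groups of 3 libraries are too small to test for a single outlying library, so only differences of response between genotypes were looked for. None was called for an AFP gene. Among the named genes of the pathway, the ABA response of ABF1 was larger in cdk8 than in wild type by 0.89 (log2, edgeR adjusted p = 0.0012), and that of HAB1, a clade A PP2C gene, was smaller by -0.83 (adjusted p = 0.00756). CRL1, a gene near AFP2 in pattern, also had a smaller response in cdk8, by -0.57 (adjusted p = 0.0168).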

How the results depend on the processing

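Of 416 repeats of the 20 AFP log2 fold changes, 406 kept direction and call, 6 lost a call, 2 gained one and 2 changed sign. The cause was not tested. Every ABA response of the 4 genes, and every genotype difference of AFP1 and AFP4 that was called, held throughout. AFP2 after ABA lost its call at -0.29 under upper-quartile scaling and at -0.33 in a fit of only those 2 groups. Leaving out 1 library at a time, AFP2 after ABA ran from -0.43 to -0.28, AFP3 after ABA from -0.33 to -0.28 and AFP3 after mock from -0.22 to 0.066. The difference of responses ran from -0.67 to -0.27 for AFP1 and from -0.064 to 0.19 for AFP4. Ratios not called also changed sign: AFP1 to AFP4 between genotypes ran from -0.055 to 0.30, AFP2 to AFP3 from -0.077 to 0.050, and AFP3 to AFP4 with ABA from -0.11 to 0.093.

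Counts over all genes moved more. Genes called between genotypes after mock numbered 2781, with 4472 in a fit of those groups alone, 4383 without the libraries that stood apart and 1486 to 3432 with 1 library left out. After ABA 4999 were called, with 2931 in a fit of those groups alone and 3099 to 5284 with 1 library left out. Differences of response numbered 1103, with 1723 in DESeq2, 2063 without the libraries that stood apart and 540 to 1493 with 1 library left out. A replicate block, added once the column names had been seen, gave 650 of these and changed no AFP call. Among partners it ended the calls of ABF4 after mock (adjusted p = 0.0597), SAP18 with ABA in wild type (0.0556) and HDA19 with ABA in cdk8 (0.0586) and between genotypes after ABA (0.0557). Deviations of same-numbered libraries from their group means correlated at -0.294 to 0.157. Differently numbered libraries were not compared, so these values cannot decide whether the numbers pair libraries. Upper-quartile scaling moved the median of all genes with ABA in wild type from -0.01 to -0.15, and the AFP values moved with it.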
